A study of Mus musculus with 9 samples.

Results

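The 10 genes described here, Atf4, Atf5, Atf3, Ddit3, Ddit4, Trib3, Chac1, Sesn2, Asns and Nupr1, are transcription factors and targets of the amino acid response, the programme that cells switch on when amino acids run short. They were chosen by name, with earlier results of these data known. Of the 57180 genes in the deposited table, 11 carry one of these names, because Ddit3 is listed under 2 identifiers. Both groups were 11-day-old C57BL6 mice. In the 4 cKO animals (3 males, 1 female) Slc38a3 was deleted in endothelial cells only, and the 5 WT animals (1 male, 4 females) were wild type. RNA-seq libraries were made from whole hippocampus, 1 per sample, so each value is a sum over all its cell types and not that of the endothelial cells alone. The sources used here do not name the Cre line that drove the deletion. Slc38a3 encodes SNAT3, a sodium-coupled carrier of glutamine and related amino acids.

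When an amino acid is scarce, its uncharged tRNA activates the kinase GCN2 (Eif2ak4), which phosphorylates the initiation factor eIF2alpha. General translation then falls while translation of Atf4 and Atf5 mRNA rises, because upstream reading frames in those mRNAs stop holding ribosomes back, and endoplasmic reticulum stress reaches the same point through PERK (Eif2ak3). The ATF4 protein binds with C/EBP partners to a composite promoter element and turns on genes of amino acid synthesis, uptake and stress. mRNA levels therefore read the targets directly, but the activity of ATF4 itself only in part.

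The composite element has the form TGATGNAA and was searched on both strands of the RefSeq promoter windows (build GRCm38.p6), which run from 250 bases before to 50 bases after each annotated start site. It was present in the windows of Atf3, Trib3, Chac1, Asns and Nupr1, 5 of the 10 genes, while 4.51% of all 27025 genes with a window, and 3.97% of all 32851 windows, hold it. The following stretches (60 bases, or 30 for Trib3, where the element is inside the transcript) are shown because they match the element described above. They are matches of letters only, and whether ATF4 binds or acts at these sites was not tested. Each stretch is read on the strand where the element runs forward, and the capitals mark its 8 bases.
Atf3: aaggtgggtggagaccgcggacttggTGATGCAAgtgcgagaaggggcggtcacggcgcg
Chac1: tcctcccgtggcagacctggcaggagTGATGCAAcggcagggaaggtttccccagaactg
Nupr1: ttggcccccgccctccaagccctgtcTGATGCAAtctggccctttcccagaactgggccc
Trib3: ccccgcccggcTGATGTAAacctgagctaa
Asns: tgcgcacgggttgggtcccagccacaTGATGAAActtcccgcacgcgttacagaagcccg

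These stretches lie at chr1:191183410-191183469 (plus strand) for Atf3, chr2:119351023-119351082 (minus strand) for Chac1, chr7:126625547-126625606 (plus strand) for Nupr1, chr2:152344028-152344057 (plus strand) for Trib3 and chr6:7693199-7693258 (minus strand) for Asns, all in GRCm38.p6. Atf3, Chac1 and Nupr1 share the exact form TGATGCAA, which is contained in the searched motif and was found in 0.895% of all windows. The element starts 110 bases before the start site in both Atf3 and Nupr1, 193 before it in Chac1, 23 before it in Asns and at base 15 of the transcript in Trib3. It runs in the direction of transcription in Asns and against it in the other 4 genes.

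**Figure D1:**
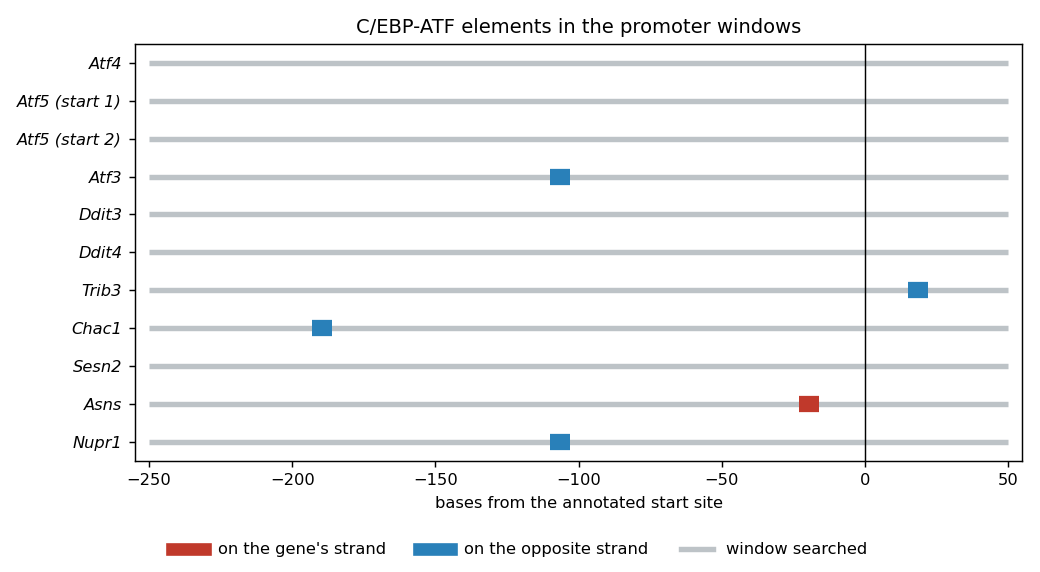
Position of the motif TGATGNAA in each promoter window, in bases from the annotated start site, with each grey line 1 window and each coloured block the 8 bases of a match. The 5 matches lie between 193 bases before and 22 bases after the start site, and Atf4, both starts of Atf5, Ddit3, Ddit4 and Sesn2 show none.

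The letters were not found in the windows of Atf4, Atf5, Ddit3, Ddit4 and Sesn2, which says nothing of sites elsewhere. Atf5 has 2 annotated starts. The 250 bases before the farther upstream one (chr7:44816659-44816908, minus strand, GRCm38.p6) are shown because Atf5 was the gene of the 10 that passed the test below.
Atf5: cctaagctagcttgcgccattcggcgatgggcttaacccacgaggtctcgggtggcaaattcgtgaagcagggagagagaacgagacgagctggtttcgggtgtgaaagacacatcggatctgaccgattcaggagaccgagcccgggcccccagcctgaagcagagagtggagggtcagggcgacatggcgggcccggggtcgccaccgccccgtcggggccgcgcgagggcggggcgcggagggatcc

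Values are gene counts that the authors divided by 1 size factor per library (normalized counts), with 32096409 to 34034530 reads behind each cKO library and 30803135 to 33134405 behind each WT library. Slc38a3 itself was at 308 to 405 normalized counts in the cKO libraries and 1804 to 3514 in the WT libraries, without overlap. WT replicates 2 and 5 (2033 and 1804) were lower in it than WT replicates 1, 3 and 4 (3392, 3514 and 3363). The reason was not tested. All 8 markers of hippocampal neurons were detected with a mean of at least 10. They summed to 46072 to 51912 in cKO and 51499 to 54769 in WT. Of their log2 fold changes 6 were below 0, none passed in limma and 1 had an unadjusted p under 0.05. Among all 17036 genes tested, 8715 had a log2 fold change below 0 and 11.3% an unadjusted p under 0.05. Summed markers of endothelial cells were at 8567 to 9515 in cKO and 9443 to 10864 in WT. In that list Flt1 fell (log2 fold change -0.34, limma adjusted p = 0.0417). Of the astrocyte markers Aqp4 fell (-0.35, adjusted p = 0.00206) while S100b (0.35, adjusted p = 0.0141) and Gfap (0.29, adjusted p = 0.0420) rose. The sums over the astrocyte list overlapped (156158 to 165610 in cKO, 155425 to 170986 in WT). They were mostly those of 1 gene, Slc1a2 (mean 87340 in cKO, 88713 in WT), and so say little of the other astrocyte markers. Summed markers of microglia were lower in cKO without overlap (8885 to 9812 in cKO, 10043 to 10804 in WT), with 7 of 8 log2 fold changes below 0 and none passing in limma, 4 having an unadjusted p under 0.05. The mural cell list was mixed. Its sum (11725 to 13038 in cKO, 13096 to 14583 in WT) was mostly that of 1 gene, Rgs5 (mean 6865 in cKO, 8132 in WT), while 3 of its 8 genes, Acta2 among them (log2 fold change 0.73), had a log2 fold change above 0 and none passed in limma, 4 having an unadjusted p under 0.05. The 10 meningeal fibroblast markers summed to 7912 to 9693 in cKO and 5640 to 9332 in WT, with 9 of 10 log2 fold changes above 0 and none passing in limma, 5 having an unadjusted p under 0.05. Choroid plexus and ependymal markers ran from 954 to 33410 in cKO and from 1092 to 43934 in WT. Summed blood cell markers were at 1558 to 2183 in cKO and 1865 to 3056 in WT. Those of oligodendrocytes and their precursors were at 27132 to 37974 in cKO and 27524 to 37696 in WT. The part of these shifts in the results below was not tested, except for the meningeal markers, whose mean entered 1 alternative fit. In bulk tissue, fewer cells of a type and less RNA per cell cannot be told apart.

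Of the 10 genes, 1 rose in cKO, none fell and 9 did not pass (limma-trend on log2(normalized count + 1) with sex as a term, adjusted p under 0.05 over all 17036 genes with a mean of at least 10). Over all genes tested, 0.346% passed, 0.123% higher and 0.223% lower. The gene that rose was Atf5, and the same call was made by edgeR and DESeq2 on the whole reads. An unadjusted p under 0.05 was reached by 2 of the 10, Atf5 and Sesn2, against 11.3% of all genes. These 2 were also the genes whose cKO and WT libraries did not overlap, both higher in cKO. Of all genes, 6.29% did not overlap, and 2.58% did so with cKO the higher. A log2 fold change above 0 was found in 9 of the 10, with Ddit3 the exception, and in 48.8% of all genes. This tally was 7 of 10 with the meningeal covariate, 7 of 9 in females only and without cKO replicate 3, 8 of 10 in males only and between 8 and 10 of 10 without any other single library. The median log2 fold change over the 10 was 0.14, against -0.0034 over all genes. It was 0.044 with the meningeal covariate, 0.054 in females only, 0.057 without WT replicate 1 and 0.060 when the mean had to reach 50, which left 7 of them. Trib3 passed the filter on low values only through its cKO libraries. Without it, 8 of the other 9 were above 0 and their median was 0.10. Because the 10 were chosen with earlier results of these data known, their tally and median are descriptive only.

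**Figure D2:**
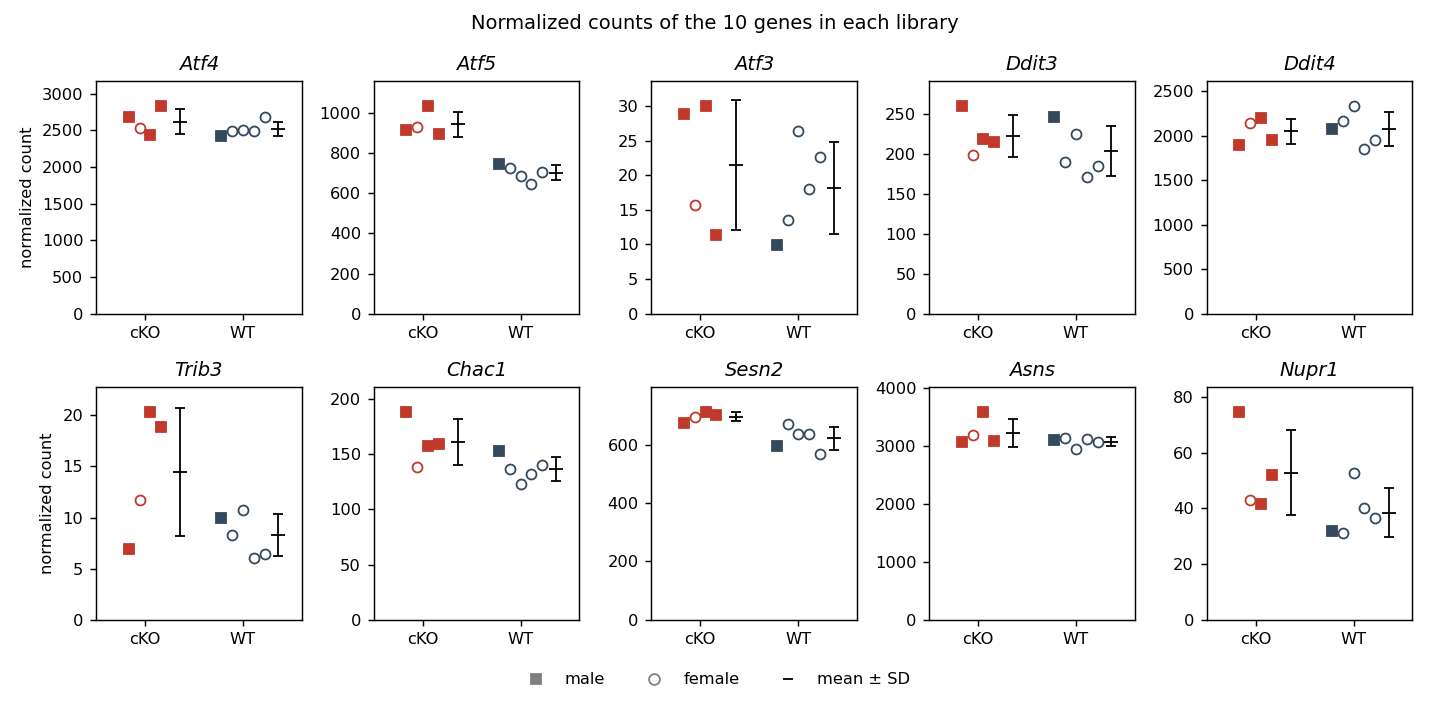
Normalized counts of each gene in every library, cKO at the left and WT at the right of each panel, with squares for males, open circles for females and bars for the mean ± SD (n = 4 cKO, n = 5 WT). The 4 cKO libraries lie above all 5 WT libraries for Atf5 and Sesn2 and overlap them for the other 8 genes.

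The transcription factors were led by Atf5 (ENSMUSG00000038539, chromosome 7, 44461679 to 44466082 in GRCm39), a bZIP factor closely related to ATF4 that is translated under the same control. Atf5 was at 916, 929, 1035 and 897 normalized counts in cKO replicates 1 to 4, against 744, 726, 686, 647 and 705 in WT replicates 1 to 5. Every cKO library lay above every WT library, with cKO replicate 3 the highest and WT replicate 4 the lowest. Atf5 rose 1.31-fold, a log2 fold change of 0.39 ± 0.0679 (SE, 95% interval 0.24 to 0.54, limma adjusted p = 0.0323), the 32nd smallest p of all genes tested. The difference had the same direction in each sex. The cKO female had 929 normalized counts, against 647 to 726 in the 4 WT females, and the 3 cKO males had 897 to 1035, against 744 in the WT male. The call was lost without cKO replicate 1 (adjusted p = 0.0571), cKO replicate 2 (0.337), WT replicate 1 (0.127), WT replicate 2 (0.0529) or WT replicate 5 (0.0598), while the log2 fold change stayed between 0.35 and 0.43. With the mean of the meningeal markers as a covariate it was 0.41 ± 0.0856 (adjusted p = 0.221). Without WT replicates 2 and 5, the WT libraries lowest in Slc38a3, it was 0.41 ± 0.0762 (limma adjusted p = 0.108). That pair was chosen after seeing the data.

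One end of Atf5 overlaps Nup62, a nuclear pore gene, and how reads of the shared stretch were assigned is unclear because the strand setting of the counting is unknown. Nup62 was at 1126 normalized counts in cKO and 1073 in WT (log2 fold change 0.09 ± 0.0569, limma adjusted p = 0.570). The lowly expressed Il4i1 also overlaps the gene, with means of 14.5 normalized counts in cKO and 15.5 in WT.

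Atf4 (ENSMUSG00000042406, chromosome 15, 80139384 to 80141742), the central factor of the response, did not pass. It was at 2678, 2528, 2434 and 2832 normalized counts in cKO replicates 1 to 4, against 2415, 2485, 2507, 2492 and 2674 in WT replicates 1 to 5. The groups overlapped, although the highest library was a cKO one (replicate 4) and the lowest a WT one (replicate 1). For Atf4 the log2 fold change was 0.06 (95% interval -0.06 to 0.18, limma adjusted p = 0.729). The interval reaches a 1.14-fold difference in favour of cKO, which is smaller than the 1.31-fold rise of Atf5.

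Ddit3 (ENSMUSG00000025408, chromosome 10, 127126642 to 127132157) encodes CHOP, a factor induced by ATF4 that is linked to cell death under lasting stress. It was at 198 to 260 normalized counts in cKO and 171 to 245 in WT, and its log2 fold change was -0.02 (95% interval -0.28 to 0.23, limma adjusted p = 0.959). The cKO mean was the higher, 222 ± 26.3 in cKO and 203 ± 30.9 in WT (SD, n = 4 and 5), and without the sex term the sign turned (log2 fold change 0.13, adjusted p = 0.614). The gene overlaps Mars1, a tRNA synthetase gene with means of 1904 normalized counts in cKO and 1784 in WT (log2 fold change 0.06, limma adjusted p = 0.712), and how reads of the stretch they share were assigned is unclear here too. A second identifier named Ddit3 inside its span (ENSMUSG00000116429) is listed at 0 in all 9 libraries. Atf3 (ENSMUSG00000026628, chromosome 1, 190902492 to 190950236), an early stress-induced member of the ATF family, was low, with 28.8, 15.7, 30.0 and 11.3 normalized counts in cKO replicates 1 to 4, against 9.97, 13.5, 26.4, 18.1 and 22.6 in WT replicates 1 to 5. The groups overlapped, with 2 cKO libraries above and 2 inside the WT range. The log2 fold change was 0.35 (95% interval -0.54 to 1.23, limma adjusted p = 0.788), an interval too wide to give Atf3 a direction.

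The targets that act on mTORC1, the kinase complex that couples amino acids to growth, are Sesn2 and Ddit4. Sesn2 (ENSMUSG00000028893, chromosome 4, 132219342 to 132237812) encodes a leucine sensor that restrains mTORC1. It was at 676, 694, 712 and 703 normalized counts in cKO replicates 1 to 4, against 596, 670, 636, 637 and 570 in WT replicates 1 to 5. All 4 cKO libraries were above all 5 WT libraries, by a margin as small as that between cKO replicate 1 and WT replicate 2, and the cKO libraries were close together (coefficient of variation 2.21% in cKO and 6.26% in WT). The log2 fold change was 0.18 ± 0.0678 (95% interval 0.04 to 0.33), with an unadjusted p of 0.0170 and a limma adjusted p of 0.325, so it did not pass. It was positive in all 23 alternative fits, from 0.15 to 0.22, and passed in none of them. These fits reuse the same libraries and are not independent. Ddit4 (ENSMUSG00000020108, chromosome 10, 59785490 to 59787656), which encodes the mTORC1 inhibitor REDD1, was at 1892 to 2192 normalized counts in cKO and 1849 to 2332 in WT. Its log2 fold change was 0.0045 (95% interval -0.16 to 0.17, limma adjusted p = 0.986).

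**Figure D3:**
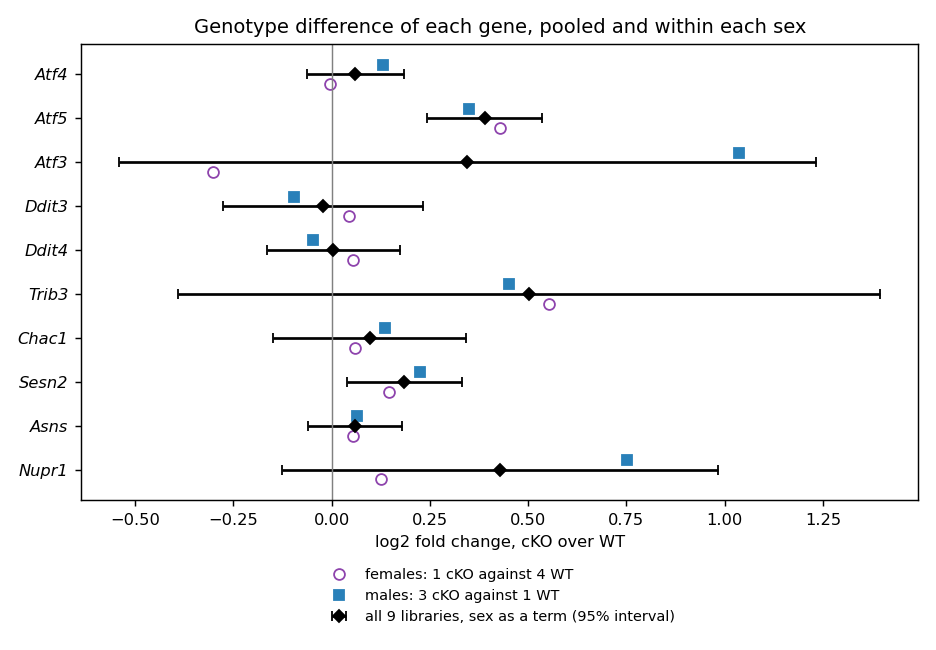
Log2 fold change of each gene, cKO over WT, from all 9 libraries with sex as a term (diamonds, with 95% intervals), and the plain log2 difference within females (open circles, 1 cKO and 4 WT) and within males (squares, 3 cKO and 1 WT). The intervals of Atf5 and Sesn2 lie above 0, those of the other 8 genes include it, and Atf3 and Trib3 have the widest.

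The remaining targets are effectors and feedback genes. Asns (ENSMUSG00000029752, chromosome 6, 7675168 to 7693254) encodes asparagine synthetase, which uses glutamine as its nitrogen donor and is a classic readout of amino acid shortage. Asns was at 3069, 3186, 3584 and 3085 normalized counts in cKO replicates 1 to 4, against 3094, 3138, 2953, 3120 and 3063 in WT replicates 1 to 5. One library, cKO replicate 3, stood above the other 8, which lay between 2953 and 3186. The log2 fold change was 0.06 (95% interval -0.06 to 0.18, limma adjusted p = 0.720).

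Chac1 (ENSMUSG00000027313, chromosome 2, 119181709 to 119184862) encodes an enzyme that breaks down glutathione. It was at 188, 138, 158 and 159 normalized counts in cKO replicates 1 to 4, against 153, 136, 123, 132 and 140 in WT replicates 1 to 5. The 3 cKO males were above every WT library and the cKO female was within the WT range. The log2 fold change was 0.10 (95% interval -0.15 to 0.34, limma adjusted p = 0.786) with sex as a term and 0.23 (adjusted p = 0.320) without it.

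Trib3 (ENSMUSG00000032715, chromosome 2, 152179341 to 152185952) encodes a pseudokinase that feeds back on ATF4. Its 6.96, 11.8, 20.3 and 18.9 normalized counts in cKO replicates 1 to 4 stood against 9.97, 8.31, 10.8, 6.02 and 6.45 in WT replicates 1 to 5, that is 7 to 21 reads in a cKO library and 6 to 11 in a WT one. cKO replicates 2, 3 and 4 were above every WT library, while cKO replicate 1 was within the WT range. Trib3 had a log2 fold change of 0.50, the largest of the 10, with a 95% interval of -0.39 to 1.40 (limma adjusted p = 0.681). Nupr1 (ENSMUSG00000030717, chromosome 7, 126222420 to 126230033), a small stress-induced chromatin protein, was at 74.6, 43.1, 41.6 and 51.9 normalized counts in cKO replicates 1 to 4, against 31.9, 31.2, 52.8, 40.2 and 36.6 in WT replicates 1 to 5. Only cKO replicate 1 was above every WT library, and the log2 fold change was 0.43 (95% interval -0.13 to 0.98, limma adjusted p = 0.554). For Nupr1 it was 0.037 with the meningeal covariate, 0.12 without WT replicate 1 and 0.75 without cKO replicate 2. These replicates are the only WT male and the only cKO female. With the sex term, the 0.12 is therefore the difference within females and the 0.75 that within males.

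The 10 genes did not rank the libraries alike. Within the cKO group, replicate 3 held the highest value of all 9 libraries for 5 genes (Atf5, Atf3, Trib3, Sesn2 and Asns), replicate 1 for 3 (Ddit3, Chac1 and Nupr1) and replicate 4 for Atf4. The remaining gene, Ddit4, was highest in WT replicate 3. The lowest value of each of the 10 was in a WT library, in WT replicate 4 for 4 of them (Atf5, Ddit3, Ddit4 and Trib3). These ranks are of values not adjusted for sex, while most WT libraries were female and most cKO libraries male. How often other genes rank the libraries so was not computed, so the ranks are descriptive only. In cKO replicate 1, Nupr1 was 0.96 and Chac1 0.46 above the WT mean on the log2 scale, while Trib3 was 0.20 below it (-0.20). cKO replicate 2, the only cKO female, held neither a highest nor a lowest value.

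**Figure D4:**
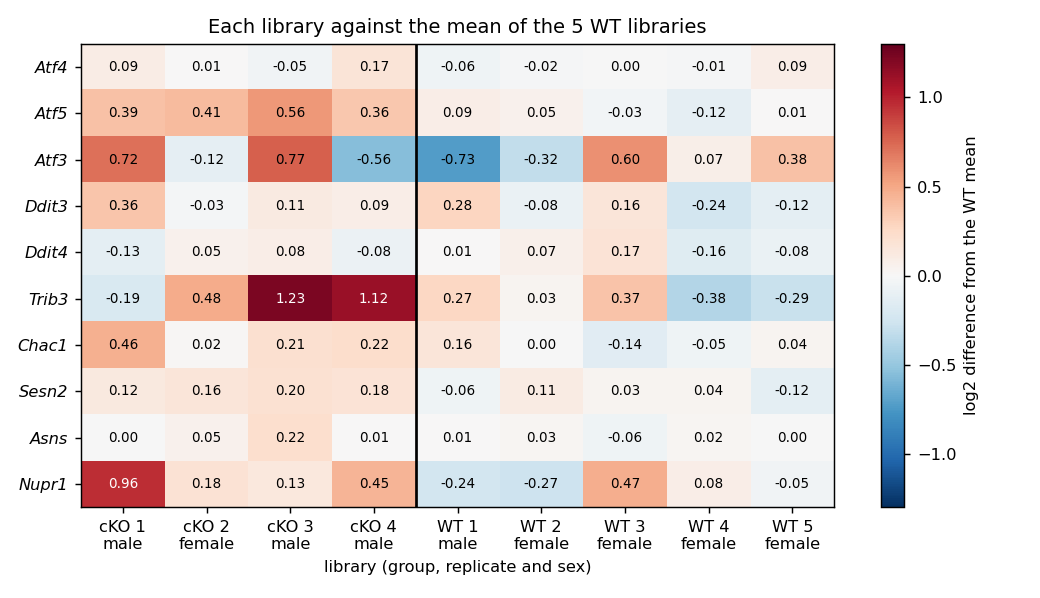
Log2(normalized count + 1) of each gene in each library minus the mean of the 5 WT libraries, with cKO libraries left of the black line and WT libraries right of it. The row of Atf5 is between 0.36 and 0.56 in all 4 cKO libraries, whereas those of Trib3, Nupr1 and Atf3 differ from one cKO library to the next.

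Levels were compared between genes after division by exon length (GENCODE vM21 gene models, which are of the earlier build GRCm38, used here for length only). In normalized counts per kilobase of exon, Asns (1181 ± 88.1 in cKO and 1124 ± 26.6 in WT), Ddit4 (1166 ± 82.7 in cKO and 1183 ± 107 in WT) and Atf4 (1110 ± 73.9 in cKO and 1066 ± 40.7 in WT) were the highest, and their libraries overlapped (SD, n = 4 and 5). Next was Atf5, at 474 ± 31.2 in cKO and 352 ± 18.9 in WT, then Sesn2 (200 ± 4.43 in cKO and 179 ± 11.2 in WT), Ddit3 (130 ± 15.4 in cKO and 119 ± 18.0 in WT) and Chac1 (98.2 ± 12.5 in cKO and 83.5 ± 6.63 in WT), each separate from its neighbours in both groups. Nupr1 (21.0 ± 6.05 in cKO and 15.3 ± 3.49 in WT) came next. Atf3 (9.96 ± 4.35 in cKO and 8.41 ± 3.08 in WT) and Trib3 (6.81 ± 2.94 in cKO and 3.91 ± 0.983 in WT) were the lowest and overlapped each other. Atf5 thus stayed below Atf4 in both genotypes.

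Sex was examined because it was unevenly split between the genotypes. None of the 10 genes differed between females and males in the same limma fit, where 0.0528% of all genes passed, and edgeR and DESeq2 called none either. An unadjusted p under 0.05 was reached by 1 of the 10, Ddit3, against 6.73% of all genes. Ddit3 averaged 194 normalized counts in females and 234 in males (log2 fold change, female over male, -0.29, 95% interval -0.54 to -0.03, adjusted p = 0.718). The interaction of genotype and sex passed in none of the 10 with limma, edgeR or DESeq2 (0.00587% of all genes passed in limma), and none had an unadjusted p under 0.05, against 7.90% of all genes. The widest difference between the sexes was that of Atf3, with a genotype difference of -0.30 in females and 1.04 in males on the log2 scale (interaction unadjusted p = 0.105, adjusted p = 0.653). With 1 cKO female and 1 WT male the interaction was only weakly constrained.

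The rest of the pathway was described from lists of its other genes. All pathway lists, here and below, were chosen with earlier results of these data known, so their tallies and medians are descriptive only. No alternative fits are given for their genes. Of all genes tested, 11.3% had an unadjusted p under 0.05 in either direction. Among 14 genes of the eIF2alpha kinases, their activators and the exchange factor eIF2B, none passed in limma and none had an unadjusted p under 0.05 (median log2 fold change 0.02). The kinase gene Eif2ak3 was at 1019 ± 18.0 normalized counts in cKO and 948 ± 39.5 in WT (SD, n = 4 and 5), with a log2 fold change of 0.10 and an adjusted p of 0.517. That of Eif2s1, which encodes eIF2alpha, was -0.09 and that of Eif2s2 0.06. None of 5 eIF2alpha phosphatase genes passed in limma, and 1 had an unadjusted p under 0.05. This was Ppp1r15a, which encodes the stress-induced subunit GADD34 and is itself switched on by the response, at 521 ± 37.6 in cKO and 481 ± 8.95 in WT (log2 fold change 0.16, adjusted p = 0.383). Ppp1cc was at 0.09 and Ppp1cb at -0.05 on the log2 scale, without passing. Of 11 tested ATF4 partners and related bZIP factors none passed in limma and 1 had an unadjusted p under 0.05, Fosl2 (log2 fold change -0.24, adjusted p = 0.129). The median over these 11 was -0.07. Nfe2l1 was at -0.08 and the ATF4 partner gene Cebpg at -0.18, neither passing.

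Of 35 other ATF4 targets tested, 1 rose (against 0.123% of all genes), none fell (0.223% of all genes) and 34 did not pass. The gene that rose was Phgdh, which encodes the enzyme that starts serine synthesis, with a mean of 1666 ± 184 normalized counts over the 4 cKO libraries and 1333 ± 38.5 over the 5 WT libraries (SD; log2 fold change 0.38, limma adjusted p = 0.0353). The cationic amino acid transporter gene Slc7a3 was at 855 ± 224 in cKO and 531 ± 32.9 in WT (log2 fold change 0.43, adjusted p = 0.185). The mitochondrial serine enzyme gene Shmt2 was at 1046 ± 62.1 in cKO and 892 ± 46.6 in WT (log2 fold change 0.24, adjusted p = 0.186). In both the groups did not overlap, yet neither passed. Of the 35, 26 had a log2 fold change above 0, against 48.8% of all genes, and the median was 0.06. An unadjusted p under 0.05 was reached by 10 genes higher in cKO and 2 lower. Of all genes, 4.94% had one with a higher level in cKO and 11.3% in either direction. A promoter window was matched by symbol for 30 of the 37 listed targets. The element TGATGNAA is in 10 of these 30, against 4.51% of all genes with a window.

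The ATF6 and XBP1 arms of the unfolded protein response, which run beside PERK when the endoplasmic reticulum is stressed, were set beside these genes. None of their 18 genes passed in limma, and 4 had an unadjusted p under 0.05, all of them lower in cKO. Of all genes tested, 11.3% had such a p in either direction. Of the 18, 17 had a log2 fold change below 0, with a median of -0.08, against 8715 of all 17036 genes tested. Manf, a secreted chaperone-like factor, was at 1306 ± 40.4 normalized counts in cKO and 1521 ± 55.5 in WT (SD, n = 4 and 5), without overlap (log2 fold change -0.22, adjusted p = 0.132). The chaperone genes Hyou1 (-0.12, adjusted p = 0.269) and Dnajb11 (-0.13, adjusted p = 0.309) were also without overlap and did not pass.

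**Figure D5:**
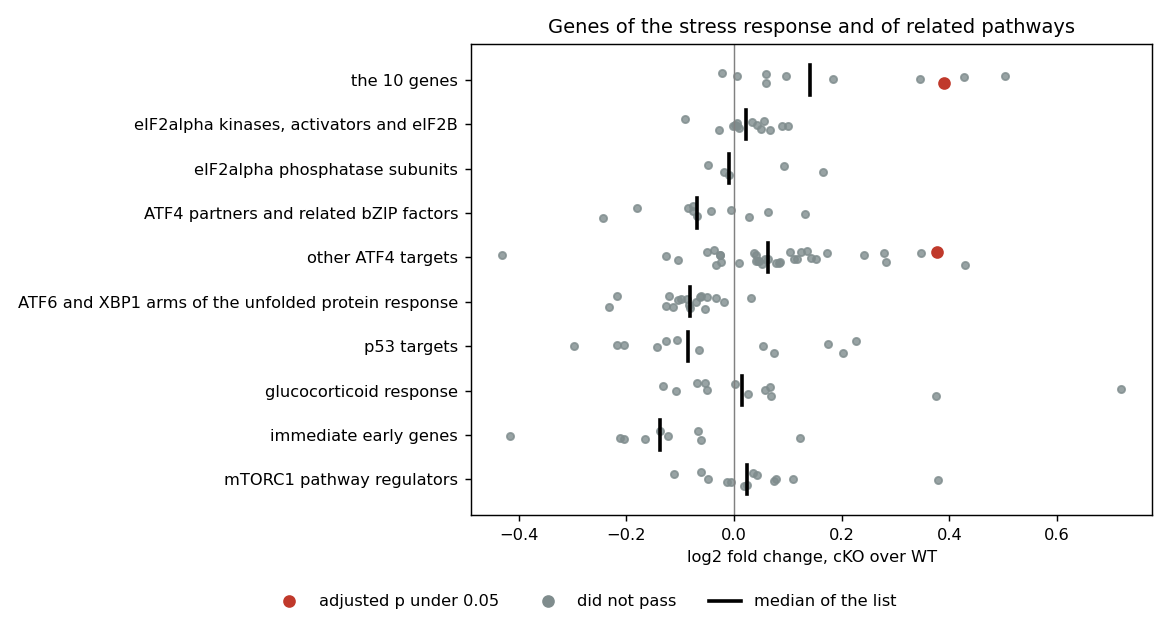
Log2 fold change, cKO over WT, of every tested gene of the 10 and of each pathway list (cell type marker lists are not drawn), 1 point per gene, with the median of the list as a black bar and genes passing at an adjusted p under 0.05 in red (points are spread up and down only to separate them). Atf5 and Phgdh are the 2 red points. The median of the 10 genes is 0.14 (0.10 without Trib3) and that of the ATF6 and XBP1 arms is -0.08.

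The genes whose profile over the 9 libraries was most like that of Atf5 were sought among the other 13912 genes with a mean of at least 50. Likeness was the root mean square difference between log2 profiles, each centred on its own mean, and its median over all these genes was 0.247. The closest were the processed pseudogene Gm5242 (0.0799), Rpp25, which encodes a subunit of ribonuclease P (0.0855), Gm960 (0.0872), Inafm1 (0.0913) and the long non-coding RNA gene Gm47163 (0.0915). Their log2 fold changes were 0.40, 0.32, 0.40, 0.21 and 0.23 in this order, and none passed in limma (unadjusted p of 0.00234 to 0.0202). All 5 had cKO libraries above all WT libraries, as the choice by likeness to Atf5 favours, and none was another of the 10 genes.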

How the data were processed

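Hippocampus RNA-seq of 4 cKO and 5 WT mice was used, grouped by the genotype and sex of the labels. The labels hold no replicate numbers, so samples were numbered within a group by record. Libraries of a group differed beyond sampling noise (3.62 to 12.9 chi-square per gene). Nothing says whether animals shared litters, so the p-values reflect only how much these samples vary. The submitters' processing notes name GRCm39 and the tools STAR 2.7.10b, cutadapt 4.4, FastQC 0.12.1 and DESeq2 1.41.8. Libraries were made with a directional kit, per the labels' protocols, but the counter, its strand setting and the annotation release are unknown here. The authors deposited 1 signal value per gene and library, which from its steps is a read count divided by a size factor. The value of 1 read was 0.943 to 1.08 in the different libraries, and 100.0% of the values above 0 came out whole, within 0.1 read. All 9 libraries were also checked on values of 40 to 150, and 100% of these came out whole too. This check matters most for 3 libraries (cKO 1, WT 1, WT 4), where the value of 1 read is very near 1.

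The main test was limma 3.58.1 (R 4.3.3) with trend on log2(normalized count + 1), with terms for sex and genotype, over 17036 genes with a mean of at least 10, and Benjamini-Hochberg adjustment. This scale understates fold changes of low genes. A second fit added the interaction. On the recovered reads, edgeR 4.0.16 and DESeq2 1.42.0 served as alternatives. The main limma fit, and none of the other steps, was tested on simulated counts. The text names Slc38a3, the 10 genes, each pathway list's passing genes (or those of smallest p, up to 3) and the 5 profiles nearest to Atf5. Nup62, Il4i1 and Mars1 are named as overlapping genes, and Flt1, Aqp4, S100b, Gfap, Slc1a2, Rgs5 and Acta2 as cell type markers, chosen after their values were seen. Of 218 list genes, 9 were matched by an older symbol. The 10 genes and the lists were chosen with earlier results of these data known. Python 3.11.15, pandas 2.3.3, numpy 2.4.6 and matplotlib 3.10.9 were used.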

Additional observations from a re-analysis of the deposited data

How the results depend on the processing

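The log2 fold changes of Atf5, Trib3, Chac1, Sesn2, Asns and Nupr1 were positive under every alternative in which the gene was tested. The alternatives reuse the same libraries and are not independent. Of the 10 genes, 1 was called (Atf5) under both other pseudocounts, all 3 other filters, TMM scaling, robust limma, no sex term, edgeR and DESeq2. It was 0 in males only, in females only, with the meningeal covariate and without WT replicates 2 and 5 (chosen after seeing the data), and 0 to 1 with 1 library left out, 0 in 5 of those 9 fits. Over all genes, 59 were called, but 216 without the sex term, 3 in males only, 11 in females only, 10 with the covariate, 199 with DESeq2, 15 without WT replicates 2 and 5 and 10 to 65 with 1 library left out. Signs turned in 4 genes that never passed. Ddit3 was at 0.13 without the sex term, at 0.045 in females only and at -0.096 to 0.045 with 1 library left out. Ddit4 was at -0.018 without the sex term, -0.049 in males only, -0.033 with the covariate, -0.0037 without WT replicates 2 and 5 and -0.049 to 0.054 with 1 library left out. Atf4 was at -0.0057 in females only and at -0.0057 to 0.13 with 1 library left out. Atf3 was at -0.30 in females only, -0.14 with the covariate and -0.30 to 1.04 with 1 library left out. The cause was not tested. Without WT replicate 1, the only WT male, the log2 fold change is that of females only. Without cKO replicate 2, the only cKO female, it is that of males only. These 2 fits thus repeat the differences within each sex and do not show the influence of a single library apart from sex. No gene of the 10 was called for sex or the interaction in any alternative fitted, and without cKO replicate 2 or WT replicate 1 the interaction could not be fitted. Trib3 rested on 6 to 21 reads per library and Atf3 on 10 to 31, and the part of depth in their spread was not tested. No paired analysis was possible because the labels give the groups no shared replicate numbers.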

Other observations

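Some of the 10 genes also answer to signals other than amino acid shortage, and lists for these were described too. Their tallies and medians are descriptive only, because these lists too were chosen with earlier results of these data known. As a background for them, 11.3% of all genes tested had an unadjusted p under 0.05. Of 12 glucocorticoid response genes, a hormone signal that also induces Ddit4, none passed in limma and 2 had an unadjusted p under 0.05. These were the metallothionein genes Mt2, at 1262 ± 396 normalized counts in cKO and 913 ± 270 in WT (SD, n = 4 and 5, log2 fold change 0.72, limma adjusted p = 0.186), and Mt1, at 1750 ± 381 in cKO and 1481 ± 200 in WT (log2 fold change 0.38, adjusted p = 0.280). In both the libraries overlapped, and the median over the list was 0.01. Nr3c1, the glucocorticoid receptor gene, was at -0.11 (adjusted p = 0.484). Of 12 targets of p53, a factor that can also induce Sesn2, none passed in limma and 3 had an unadjusted p under 0.05, Zmat3 (log2 fold change -0.22, adjusted p = 0.240), Cdkn1a (-0.20, adjusted p = 0.403) and Phlda3 (0.17, adjusted p = 0.432), with a median of -0.08 over the list.

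Of 9 immediate early genes, 8 had a log2 fold change below 0 (median -0.14), against 8715 of all 17036 genes tested. None passed in limma and 1 had an unadjusted p under 0.05. The last was Arc, which marks recent neuronal activity, at 1005 ± 251 normalized counts in cKO and 1413 ± 97.7 in WT, without overlap (log2 fold change -0.42, limma adjusted p = 0.308). Nr4a1 was at -0.21 (adjusted p = 0.610) and Egr1 at -0.12 (adjusted p = 0.799). Among 13 mTORC1 regulators, none passed and none had an unadjusted p under 0.05. The one nearest to it was Castor1, an arginine sensor gene, at 85.2 ± 13.4 in cKO and 68.0 ± 9.03 in WT (log2 fold change 0.38, limma adjusted p = 0.445). Castor2 was at -0.11 (adjusted p = 0.482) and Sesn1, a relative of Sesn2, at 0.07 (adjusted p = 0.619), and the list's median was 0.02.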
